A study of Homo sapiens with 27 samples.

Results

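The response to MET inhibition was compared between EBC-1 and MKN-45, a pair of human cancer cell lines that the series design describes as addicted to MET. For each gene, the change in EBC-1 between DMSO and 48 h of SGX-523 was taken, and the same change in MKN-45 was subtracted from it. This value is called the response difference here, on the log2 scale, so that a positive one means a larger rise or a smaller fall in EBC-1. It rests on 12 of the 27 arrays of the series, 3 in each of 4 groups, and was tested for 11775 genes. The groups were EBC-1 (labelled non-small cell lung cancer) given DMSO, EBC-1 given SGX-523 at 1 uM for 48 h, MKN-45 (labelled gastric cancer) given DMSO, and MKN-45 given SGX-523 at 1 uM for 48 h. The remaining arrays hold the same lines at 24 h and HCC827, a lung cancer line that serves as the control without MET dependence. No group carries an introduced allele, and each type of cancer is represented by 1 line. The labels give no culture time for the DMSO arrays, so effects of time in culture and of the inhibitor cannot be told apart.

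MET is the receptor tyrosine kinase for hepatocyte growth factor, and SGX-523 is a small molecule that blocks its kinase. Signals from MET run through RAS and ERK to immediate early genes such as FOS, and through PI3 kinase and AKT to metabolism, protein synthesis and the FOXO factors. In lines with amplified MET the receptor is active without its ligand, and blocking it stops proliferation.

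The labelled arrays were alike within a group, with Pearson's r across probe sets of at least 0.996. Per the labels, the 3 arrays of a group are biological replicates. No array had the same values as another. Array medians lay between 5.02 and 5.11, and a level below them is read as low signal, where the size of a fold is less certain than its direction. From DMSO to 48 h, the 42 probe sets for external controls rose in their median by 0.394 in EBC-1 and by 0.270 in MKN-45. The log2 ratio of the 3 prime to the 5 prime control probe sets of ACTB was higher by 0.525 and 0.623 (exact two-sided permutation p = 0.1 for each of these 4 changes, the smallest that 3 against 3 arrays allow). Counts with arrays centred on the external controls are given beside several of the results they change. Counts of other lists also moved under that centring, mostly towards fewer higher or more lower genes. The part of the ACTB ratio was not tested. EPCAM, KRT8 and KRT18, markers of epithelial cells, were above the array median on all 12 arrays, while CDH1 (E-cadherin) was below it on every EBC-1 array. NKX2-1, a lung lineage factor, stood close to the median in both lines (5.50 in EBC-1 and 5.59 in MKN-45 on DMSO). Of 16 stomach lineage genes 8 were above it on all DMSO arrays of MKN-45 and 3 on all those of EBC-1. TFF1 was above it in MKN-45 only, whereas MUC1, GATA6 and ANXA10 were above it in both lines. ANXA10 stood at 11.50 in EBC-1 and 10.46 in MKN-45 on DMSO. MUC6, GKN1, GKN2 and CLDN18 were below the median on every array. Of 9 fibroblast markers 7 stayed below the median throughout, among them COL1A1, COL1A2, COL3A1 and DCN. PDGFRB stood close to the median. LUM (lumican) stood at 10.04 in EBC-1 on DMSO and 12.06 at 48 h, so that the summed linear level of the list went from 1126 to 1231 on the DMSO arrays to 4266 to 4604 at 48 h. In MKN-45 that sum was 119 to 128 on DMSO and 122 to 123 at 48 h. Of 8 leukocyte markers, PTPRC and CD3E were below the median on every array, whereas on DMSO LYZ stood at 11.46 in MKN-45 and CD14 at 7.11 in EBC-1. At 48 h EBC-1 had CD14 at 5.72 and LYZ at 5.7, the latter from 3.83. The summed leukocyte level was 266 to 287 on DMSO and 237 to 261 at 48 h in EBC-1, and 2839 to 3013 and 2845 to 3512 in MKN-45.

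Promoter sequence is shown for 3 of the genes with the largest response differences, the AP-1 subunit gene FOS, the mucin gene MUC13 and the membrane protein gene TMEM158. Each has a single start site in the RefSeq table (GRCh38.p14), and the 250 bases before it are given 5′ to 3′ on the strand of the gene. FOS lies on the plus strand (chr14:75278578-75278827), and MUC13 (chr3:124934752-124935001) and TMEM158 (chr3:45226288-45226537) lie on the minus strand. Capitals mark matches to the motifs searched.
FOS: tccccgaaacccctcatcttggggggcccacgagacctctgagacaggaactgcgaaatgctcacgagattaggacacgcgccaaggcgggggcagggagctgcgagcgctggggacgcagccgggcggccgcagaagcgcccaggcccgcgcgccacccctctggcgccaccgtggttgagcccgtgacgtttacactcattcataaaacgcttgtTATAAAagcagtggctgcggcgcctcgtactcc
MUC13: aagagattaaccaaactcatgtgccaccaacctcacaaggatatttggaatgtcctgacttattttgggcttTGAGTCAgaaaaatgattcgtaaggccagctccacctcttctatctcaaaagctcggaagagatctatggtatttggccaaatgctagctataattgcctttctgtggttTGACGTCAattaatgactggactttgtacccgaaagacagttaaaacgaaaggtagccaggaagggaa
TMEM158: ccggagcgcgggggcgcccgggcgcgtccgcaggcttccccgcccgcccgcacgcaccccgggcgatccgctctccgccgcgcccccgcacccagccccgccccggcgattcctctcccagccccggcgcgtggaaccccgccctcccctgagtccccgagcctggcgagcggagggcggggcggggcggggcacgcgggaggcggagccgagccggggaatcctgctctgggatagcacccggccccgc
The motifs searched on both strands were the AP-1 site TGANTCA, the CRE site TGACGTCA, the E-box CACGTG, the ETS site CCGGAAG, the FOXO site TGTTTAC and the TATA box TATAAA. The MUC13 window holds an AP-1 site at base 73 and a CRE site at base 183, with no overlap. Of 35116 RefSeq windows of that length, 6.57% hold the AP-1 site and 1.65% the CRE site. The FOS window holds a TATA box at base 218, as 10.7% of windows do. TMEM158 has a GC-rich window in which none of the 6 motifs was found. The other motifs occur in 6.34% (E-box), 8.52% (ETS) and 2.98% (FOXO) of windows. A match describes these letters only.

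Both lines changed most of their transcripts, and at most genes the size or direction of the change differed between them. The threshold for a call was a limma adjusted p of 0.05, with Benjamini-Hochberg adjustment across the 11775 genes. The response difference was called at 7245 genes (61.5%), with 2916 higher in EBC-1 (24.8%) and 4329 lower (36.8%). Its size was at least 2-fold at 1756 genes (14.9%), of which 749 were higher and 1007 lower. The median standard error of a response difference was 0.112, and the median response difference was -0.058. Where arrays were centred on the external controls, that median was -0.18 and 28.8% of the calls were higher, against 40.2% without centring. The changes of single genes and lists are best read against that shift.

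The responses themselves shared their direction at 5473 of the 11775 genes. SGX-523 changed 8414 genes in EBC-1 (71.5%; 38.1% of genes up and 33.3% down) and 8487 in MKN-45 (72.1%; 41.7% up and 30.4% down), and those 5473 were called the same way in both, 3028 up and 2445 down. Opposite ways with a called difference were 1199 genes (10.2%). Across the genes, which are not independent replicates, the response of EBC-1 correlated with that of MKN-45 at Pearson's r = 0.600 and Spearman's rho = 0.565. No array is shared between these responses. Their spread across genes was close to equal, with SDs of 0.914 in EBC-1 and 0.930 in MKN-45, and the response difference had an SD of 0.825. A small share of genes carried much of it, since the 118 genes of the top 1% by size held 23.3% of the summed squares and the top 10% held 68.1%. Among the called genes, 1795 moved the same way but further in EBC-1 and 1464 the same way but further in MKN-45. A further 1311 were called in EBC-1 and not in MKN-45, and 1408 in MKN-45 and not in EBC-1. Being called in a single line is no test of a difference, which the called response difference gives. The filter on low signal let a gene in when 3 arrays reached their median, so 566 genes passed through a single group, 224 of them through MKN-45 at 48 h, 171 through EBC-1 at 48 h, 92 through MKN-45 on DMSO and 79 through EBC-1 on DMSO. Such a gene had to differ between groups. Among the other 11209 genes, 2743 were higher and 4095 lower. In these cultures a smaller share of some cells and less RNA per cell cannot be told apart.

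**Figure D1:**
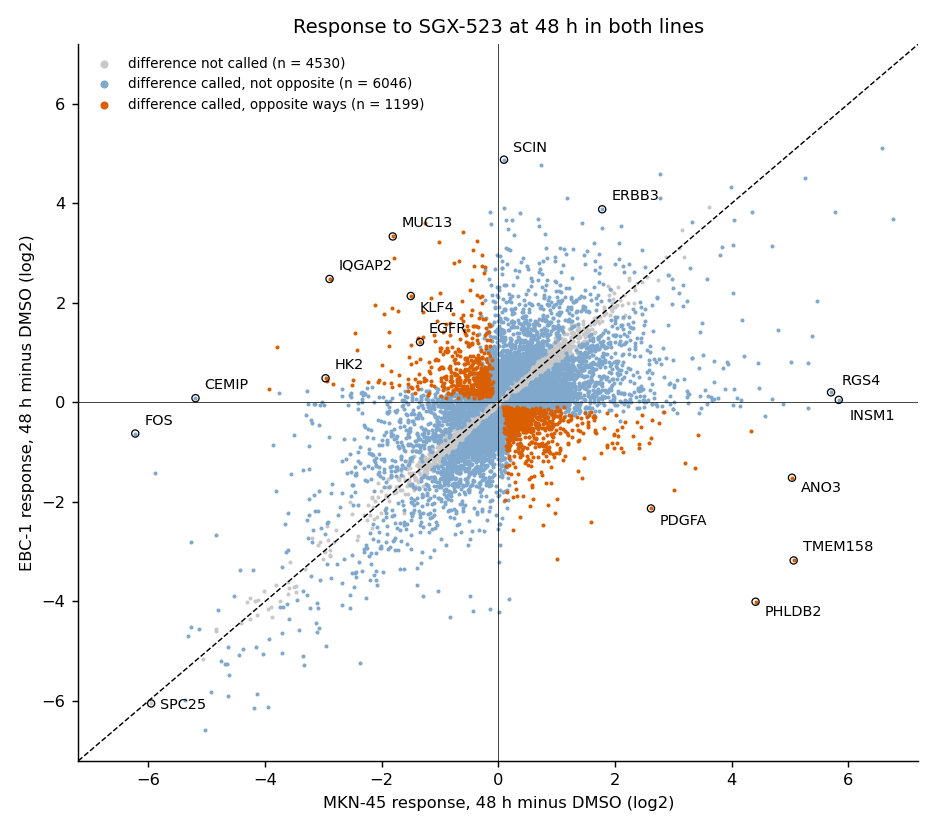
Each point is 1 of 11775 genes, with its log2 change from DMSO to 48 h of SGX-523 in MKN-45 on the x axis and in EBC-1 on the y axis, and the dashed line marks equal responses. The 1199 genes in orange were called in opposite directions, and named genes far from the line include PHLDB2 and TMEM158 below it and MUC13, IQGAP2 and FOS above it.

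MET fell slightly in both lines. MET read 12.83, 12.75 and 12.85 on the EBC-1 DMSO arrays and 12.29, 11.91 and 12.32 at 48 h, and in MKN-45 12.60, 12.78 and 12.80 on DMSO and 12.27, 12.22 and 12.13 at 48 h. It was lower at 48 h on each array of either line. Its response difference by the brightest probe set was -0.11 ± 0.11 (SE, n = 3 arrays a group; 95% interval -0.34 to 0.11; limma adjusted p = 0.373). The 6 probe sets of MET do not give the same answer, as they span response differences from -0.11 to 0.69 and the other 5 are positive. With its probe sets averaged, MET had a response difference of 0.37, which was called (adjusted p = 0.00179). HGF, the ligand of MET, was below the array median on all 12 arrays.

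The largest response differences were those of genes that rose in MKN-45 and fell, or stayed low, in EBC-1. PHLDB2 encodes a protein that anchors microtubules near the cell cortex. PHLDB2 read 7.65, 7.69 and 7.72 on DMSO and 3.66, 4.0 and 3.39 at 48 h in EBC-1. In MKN-45 it read 4.96, 4.98 and 4.95 on DMSO and 9.34, 9.23 and 9.53 at 48 h. The arrays of the 4 groups do not overlap, and the line with the higher level on DMSO was the one with the lower level at 48 h. The response was -4.0 in EBC-1 and 4.41 in MKN-45, a difference of -8.41 ± 0.17 (adjusted p = 3.55e-18). The EBC-1 level at 48 h lies under the array medians, so that size is uncertain.

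TMEM158, a gene first described as induced by RAS, followed the same course. TMEM158 stood at 10.09, 9.90 and 9.96 on the EBC-1 DMSO arrays and at 6.72, 7.04 and 6.66 at 48 h. In MKN-45 it stood at 5.80, 5.53 and 5.85 on DMSO and at 10.89, 10.68 and 10.78 at 48 h. It thus fell 9.03-fold in EBC-1 and rose 33.4-fold in MKN-45, with a response difference of -8.24 ± 0.13 (adjusted p = 2.86e-19). PDGFA, which encodes a chain of platelet-derived growth factor, read 10.19, 10.24 and 10.17 on DMSO and 8.09, 8.0 and 8.10 at 48 h in EBC-1. In MKN-45, PDGFA read 6.32, 6.11 and 6.13 on DMSO and 8.80, 8.75 and 8.86 at 48 h. PDGFA was thus 4.01 higher in EBC-1 on DMSO, while at 48 h EBC-1 minus MKN-45 was -0.74 (response difference -4.75 ± 0.087, adjusted p = 1.16e-18). ANO3, of the anoctamin family, fell by 1.51 in EBC-1 and rose by 5.03 in MKN-45.

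A second set was at low signal in EBC-1 under both conditions and rose in MKN-45. INSM1, RFX6, RGS4, ELAPOR1 and MATN2 passed the filter only through the MKN-45 arrays at 48 h, so that they were tested because they were high there. INSM1, a transcription factor of neuroendocrine cells, read 4.72, 4.43 and 4.51 on the MKN-45 DMSO arrays and 10.46, 10.32 and 10.38 at 48 h. On the 6 EBC-1 arrays INSM1 stayed between 2.87 and 3.01. The response difference was -5.78 ± 0.15 (adjusted p = 1.24e-16). RFX6, a factor of endocrine cell development, rose by 4.88 in MKN-45 and stayed below the array median in EBC-1 (response difference -4.91 ± 0.22). RGS4, a regulator of G protein signalling, rose by 5.7 in MKN-45, with EBC-1 again at low signal (-5.50 ± 0.18). The endosomal protein gene ELAPOR1 had a response difference of -4.84, and the matrix gene MATN2 one of -4.50. In the 3 remaining genes EBC-1 stood above the array median and did not rise: HES6, a cofactor in neuronal differentiation (-0.57 in EBC-1 and 4.34 in MKN-45), the receptor gene TNFRSF19 (-0.12 and 5.30) and the neuroserpin gene SERPINI1 (0.068 and 4.69). In all 12 genes of this direction that the rule names, MKN-45 moved further than EBC-1. They were chosen by the size of the difference, and those that passed only through MKN-45 at 48 h had to be high there. The count is therefore a description only.

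FOS had the largest response difference in the other direction. FOS encodes a subunit of the AP-1 transcription factor and is transcribed within minutes of ERK activation. FOS read 9.56, 9.64 and 9.53 on the EBC-1 DMSO arrays and 8.89, 9.04 and 8.92 at 48 h. In MKN-45 FOS read 9.99, 9.94 and 10.24 on DMSO and 3.65, 4.0 and 3.85 at 48 h. EBC-1 arrays thus kept a high level on the inhibitor, while those of MKN-45 were under the array median. The responses were -0.63 and -6.22, and the difference was 5.60 ± 0.12 (adjusted p = 1.23e-17), with all 4 probe sets in that direction.

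Several other genes rose in EBC-1 and fell in MKN-45. MUC13, a transmembrane mucin, read 7.04, 7.33 and 7.40 on DMSO and 10.60, 10.52 and 10.66 at 48 h in EBC-1, and 6.71, 6.63 and 6.68 on DMSO and 4.70, 4.81 and 5.07 at 48 h in MKN-45. A level that was similar in both lines on DMSO was thus 5.73 log2 units apart at 48 h (response difference 5.14 ± 0.14, adjusted p = 1.8e-16). IQGAP2, a scaffold protein of the cytoskeleton, read 4.86, 4.81 and 4.92 on DMSO and 7.38, 7.36 and 7.28 at 48 h in EBC-1. In MKN-45 IQGAP2 read 9.99, 9.999 and 9.93 on DMSO and 7.05, 6.95 and 7.23 at 48 h. The lines met from opposite sides, with a response difference of 5.37 ± 0.11 (adjusted p = 3.37e-18). S100P, a calcium-binding protein, did likewise, with group means of 7.59 and 10.49 in EBC-1 and 11.96 and 10.17 in MKN-45. SERPINB5 (maspin) rose by 1.96 in EBC-1 and fell by 2.12 in MKN-45, and the adhesion receptor gene ADGRF1 rose by 1.12 and fell by 3.80.

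The rest of the 12 divide by which line moved. CEMIP passed the filter only through MKN-45 on DMSO and SCIN only through EBC-1 at 48 h. The hyaluronan-degrading CEMIP changed by 0.085 in EBC-1, where it was at low signal, and by -5.19 in MKN-45. The uroplakin gene UPK1B (0.27 and -3.92) and the membrane protein gene EMP1 (-1.43 and -5.88) also owed their response difference mainly to MKN-45. The actin-severing SCIN rose by 4.88 in EBC-1 and stayed at low signal in MKN-45 (0.096). RGCC, a regulator of the cell cycle (3.60 and -1.25), and NABP1, which binds single-stranded DNA (3.23 and -1.01), rose in EBC-1 and fell in MKN-45. The 12 genes ran from 4.08 to 5.60, with SEs of up to 0.17 and adjusted p-values of up to 1.26e-14.

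At 24 h all 24 of these genes had a called response difference of the same sign, beside 54.8% of all genes called at that time. The 24 genes were chosen by their size at 48 h, and 7 of them passed the filter through 1 group. Both times also share the DMSO arrays, so the values are only set side by side and are no test. The response difference was called and at least 2-fold at 24 h in 23 of the 24, beside 11.2% of all genes. RGS4 was the exception, at -0.56 at 24 h and -5.50 at 48 h. RFX6 went from -1.77 to -4.91 and TMEM158 from -5.20 to -8.24, while ANO3 (-6.81 and -6.55) and ELAPOR1 (-4.83 and -4.84) were close at both times. FOS was at 6.71 at 24 h and 5.60 at 48 h. In HCC827 at 48 h, 3 of the 24 moved by at least 1 log2 unit, namely S100P (2.12), FOS (1.52) and TMEM158 (-1.12). The HCC827 values are untested differences of group means. Those arrays were kept out of the fit because earlier results had them normalized apart, with 1 of them standing apart.

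**Figure D2:**
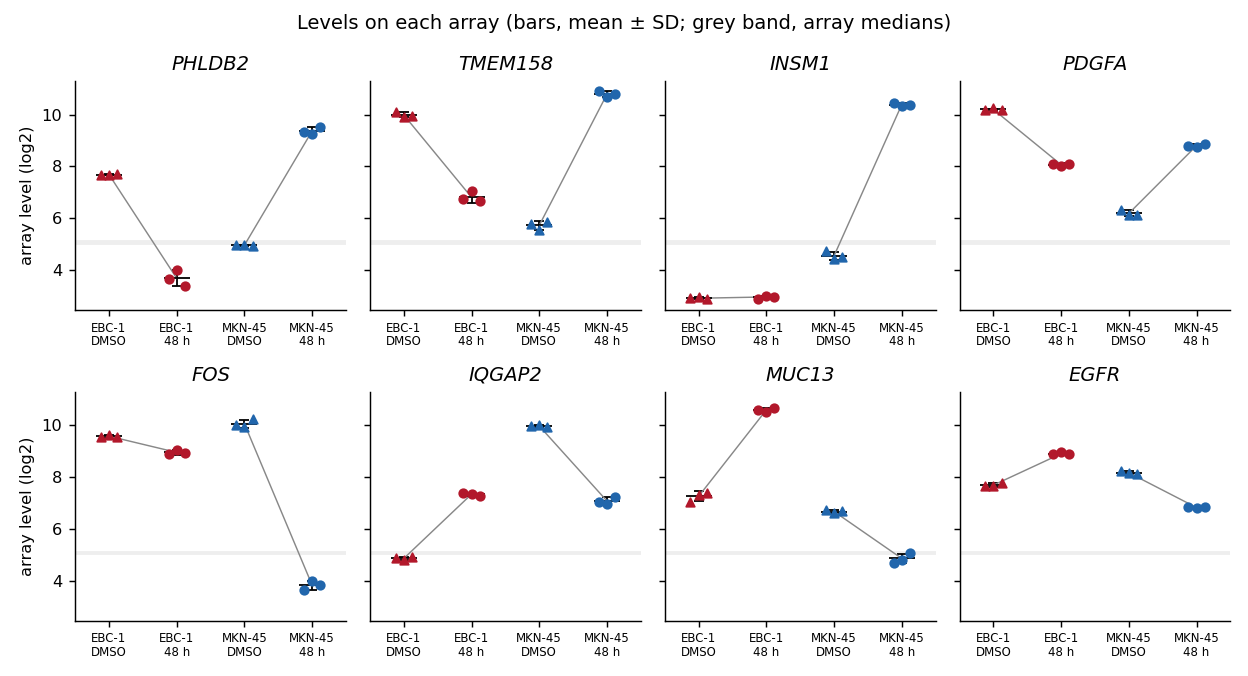
Log2 level on each of the 12 arrays for 8 genes, with EBC-1 in red and MKN-45 in blue, triangles for DMSO and circles for 48 h of SGX-523, black bars for the mean ± SD of 3 arrays and a grey band for the array medians (5.02 to 5.11). PHLDB2, TMEM158 and PDGFA fell in EBC-1 and rose in MKN-45, IQGAP2, MUC13 and EGFR did the reverse, INSM1 rose in MKN-45 and FOS fell to low signal in MKN-45.

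Of the 1199 genes called opposite ways, 487 rose in EBC-1 and fell in MKN-45, and 712 did the reverse. In most the movement was small in at least 1 line, since 26 and 18 of these moved at least 2-fold in both. Besides those above, the genes with the largest such movements that rose in EBC-1 were KLF4, a transcription factor of epithelial differentiation (2.14 in EBC-1 and -1.50 in MKN-45), the metalloproteinase gene MMP28 (1.90 and -1.82), the trypsinogen gene PRSS3 (1.84 and -1.72) and the cytidine deaminase gene CDA (1.78 and -1.96). Those that fell in EBC-1 were the gastric lipase gene LIPF (-1.76 and 3.01), the neuronal tubulin gene TUBB3 (-2.40 and 1.59), the granzyme B inhibitor gene SERPINB9 (-1.51 and 1.43) and the chromogranin gene CHGB (-1.37 and 1.36). All 16 genes of this rule, chosen by their 48 h values, also had opposite signs in the lines at 24 h, with the same DMSO arrays.

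Receptor genes moved in both directions. Among 23 tested receptor tyrosine kinases and ligands, 10 were higher in EBC-1 and 10 lower, with a median response difference of 0.022. Over all genes 24.8% were higher and 36.8% lower, with a median of -0.058, and the counts of this and the other lists are to be read against these. Without 2 genes that passed the filter through MKN-45 at 48 h alone, 10 were higher and 8 lower. EGFR, the receptor of epidermal growth factor, read 7.66, 7.64 and 7.77 on DMSO and 8.87, 8.96 and 8.87 at 48 h in EBC-1. In MKN-45 EGFR read 8.22, 8.16 and 8.12 on DMSO and 6.83, 6.81 and 6.84 at 48 h. The order of the lines was turned round without overlap between arrays, with a response difference of 2.56 ± 0.084 (adjusted p = 4.47e-15) and all 5 probe sets in that direction. The related receptor gene ERBB3 rose in both lines, by 3.88 in EBC-1 and 1.78 in MKN-45, and NRG4, a ligand of this family, rose by 1.12 and fell by 0.80. HBEGF, another such ligand, fell by 2.41 in MKN-45 and changed by -0.13 in EBC-1, where its level was close to the array medians (5.54 and 5.41). The receptor genes that favoured MKN-45 were FGFR1 (-1.09 in EBC-1 and 0.59 in MKN-45), FGFR2 (0.11 and 1.58), MERTK (0.38 and 1.54) and EPHB4 (-0.66 and 0.33). FGFR2 was at low signal in EBC-1 (3.22 and 3.32), so its difference rests on MKN-45. MERTK was at low signal in MKN-45 on DMSO (3.76), so the size of its rise there is uncertain. Ligand genes on that side included the TAM ligand gene GAS6 (-0.21 and 1.86). INSR, the insulin receptor, rose by 2.40 and 2.38.

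The output of the ERK pathway fell in both lines and differed gene by gene. Of 21 tested genes, 19 fell in each line, with medians of -2.67 in EBC-1 and -2.38 in MKN-45. The response difference was higher at 8 and lower at 10, with a median of -0.12, beside -0.058 and shares of 24.8% higher and 36.8% lower over all genes (8 and 9 of 20 without EPHA4, which passed the filter through 1 group). Among feedback inhibitors, a fall further in EBC-1 was seen for the phosphatase genes DUSP4 (-4.07 and -2.69) and DUSP5 (-2.64 and -0.74) and for SPRY2 (-2.67 and -1.49), SPRY4 (-3.67 and -2.09) and SPRED1 (-3.47 and -2.14). In MKN-45 DUSP5 was near the array medians on DMSO (5.04) and under them at 48 h (4.30), with little room to fall. SPRY4 went from 8.15 to 4.48 in EBC-1 and from 6.25 to 4.16 in MKN-45, to low signal in both. SPRED1 was at low signal in EBC-1 at 48 h (4.66), so these sizes are uncertain. SPRY1 went the other way (-0.19 and -1.76), as did the phosphatase gene DUSP6 (-4.51 and -5.27). Transcription factor genes fell further in MKN-45 for EGR1 (-2.43 and -3.66), MYC (-3.37 and -4.22), ETV4 (-1.41 and -2.45) and FOS, and further in EBC-1 for ETV1 (-4.91 and -4.15). At 48 h EGR1 in MKN-45 (4.63) and ETV4 in EBC-1 (4.75) and MKN-45 (4.45) were at low signal too.

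FOXO targets and genes of receptor feedback more often had the higher response in EBC-1. Of 19 tested, 12 were higher in EBC-1 and 5 lower, with a median of 0.34 (8 and 5 where arrays were centred on the external controls). IRS2, an adaptor of the insulin receptor, read 5.24, 5.31 and 5.69 on DMSO and 8.45, 8.50 and 8.49 at 48 h in EBC-1, and in MKN-45 9.0, 8.97 and 9.0 on DMSO and 8.50, 8.58 and 8.60 at 48 h. A gap of -3.58 on DMSO had closed to -0.077, with a response difference of 3.5 ± 0.12 (adjusted p = 9.33e-15). FOXO1 rose by 1.54 in EBC-1 and fell by 0.38 in MKN-45. GADD45A, a stress gene, was on the other side (-0.096 and 1.00). Inhibitors of the cell cycle and quiescence genes were higher in EBC-1 at 9 of 14 and lower at 2 (median 0.73). CDKN2B, which encodes p15, rose by 2.36 in EBC-1 and was at low signal in MKN-45, while CDKN1A, which encodes p21, rose by 0.97 in MKN-45 and was at 0.072 in EBC-1. MXI1, an antagonist of MYC, rose by 1.88 and 0.42. Of 17 tested p53 targets, 2 were higher and 12 lower (median -0.59; 0 and 14 where arrays were centred on the external controls), with examples in TIGAR (-1.76 and 0.14), AEN (-1.88 and -0.30), GDF15 (-2.22 and -0.72) and TP53I3 (0.50 and 1.86). TIGAR limits glycolysis and AEN is a nuclease.

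Genes of the cell cycle fell in both lines and mostly further in EBC-1. All 24 mitosis genes fell in each line, with medians of -4.46 and -3.74, and the response difference was lower at 16 and higher at 2 (median -0.69). CDK1, the main mitotic kinase, read 10.57, 10.60 and 10.64 on DMSO and 4.25, 4.69 and 4.41 at 48 h in EBC-1. In MKN-45 CDK1 read 11.35, 11.30 and 11.40 on DMSO and 7.06, 7.25 and 7.2 at 48 h. MKN-45 arrays were higher than EBC-1 arrays under both conditions, and the response difference was -1.97 ± 0.12 (adjusted p = 2.28e-11). The checkpoint kinase genes TTK (-1.95) and BUB1B (-1.51) and the centromere histone gene CENPA (-1.73) also fell further in EBC-1. The called exceptions were NDC80 of the kinetochore, which fell by 2.65 in EBC-1 and 4.85 in MKN-45, and AURKB, the kinase of chromosome segregation, which fell by 1.93 and 3.25. Several of these EBC-1 levels lie under the array medians, and the sizes depend on that. With a pseudocount of 64 the response difference stayed called but was -0.55 for CDK1, -0.70 for TTK, -0.29 for BUB1B and 0.94 for NDC80. Of 23 tested genes of G1/S and replication, all fell in both lines, and the response difference was lower at 13 and higher at 3 (median -0.44). The clamp gene PCNA (-2.54 and -1.59) and RRM2, a subunit of ribonucleotide reductase (-6.58 and -5.02), fell further in EBC-1, and the helicase subunit gene MCM4 (-1.87 and -3.16) further in MKN-45.

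A total of 38 genes moved by at least 2 log2 units the same way in both lines with a 95% interval of the response difference within -0.5 to 0.5. Of these 11 rose and 27 fell, and the 10 with the largest movements all fell. SPC25 of the kinetochore read 8.68, 8.62 and 8.63 on DMSO and 2.51, 2.61 and 2.67 at 48 h in EBC-1, and 9.12, 9.08 and 9.07 on DMSO and 3.03, 3.08 and 3.31 at 48 h in MKN-45. The responses were -6.05 and -5.95, with a response difference of -0.096 (95% interval -0.38 to 0.18). The adhesion molecule gene CEACAM6 fell by 3.61 in both, with an interval of -0.14 to 0.15. The kinesin gene KIF20A (-5.15 and -5.06), the replication factor gene CDC45 (-4.43 and -4.42), the cohesin acetyltransferase gene ESCO2 (-4.36 and -4.26) and the cyclin gene CCNB2 (-3.66 and -3.81) had wider intervals, up to -0.48 to 0.29 for ESCO2. For CCNA2, KIF20A and SPC25 the sign of the response difference turned, with a call, where a pseudocount was added, and for CCNA2 where probe sets were averaged. ESCO2 was called at -0.44 and -0.72 with pseudocounts of 16 and 64, CDC45 at -0.21 with a pseudocount of 64 and at -0.38 with averaged probe sets, and CCNB2 at 0.26 after quantile normalization. Among the 38, 4 belong to the mitosis list and 3 to that of G1/S and replication.

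In glycolysis the lines differed at each gene tested. All 17 tested glycolysis genes had a higher response in EBC-1, with a median of 0.96 (16 of 17 where arrays were centred on the external controls). In EBC-1 13 of them fell and 1 rose (median -0.79), and in MKN-45 all 17 fell (median -2.09). HK2, a hexokinase, read 8.28, 8.34 and 8.37 on DMSO and 8.70, 8.86 and 8.88 at 48 h in EBC-1. In MKN-45 HK2 read 9.82, 9.86 and 9.91 on DMSO and 6.79, 6.92 and 6.99 at 48 h. It rose slightly in EBC-1 and fell 7.80-fold in MKN-45, with a response difference of 3.45 ± 0.089 (adjusted p = 1.24e-16). Phosphofructokinase PFKP (-0.50 and -2.28), lactate dehydrogenase LDHA (-0.20 and -1.91), aldolase ALDOA (-0.90 and -2.37) and the glucose transporter gene SLC2A1 (-1.77 and -3.07) followed. Hypoxia genes were higher at 9 of 14 and lower at 2 (median 1.00), among them CA12 (0.97 and -0.95), BNIP3L (1.13 and -0.51) and PDK1 (-0.86 and -2.04), with VEGFA on the other side (0.10 and 1.17). Cholesterol synthesis genes were higher at 10 of 13 and lower at 0 (median 0.84; 9 and 1 where arrays were centred on the external controls). In this list MSMO1 (1.56 and -0.11) and INSIG1 (1.24 and 0.10) rose in EBC-1, and DHCR7 (0.12 and -1.33) and FDPS (-0.089 and -1.18) fell in MKN-45. In oxidative phosphorylation 5 of 15 were higher and 2 lower, with a median of 0.034. Where arrays were centred on the external controls, 3 were higher and 5 lower, with a median of -0.090.

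Genes of the secretory pathway and of ribosome assembly went the other way. All 16 tested ER chaperone genes had a lower response in EBC-1 (median -0.75), under each of the 3 other scalings too. The list median was -0.86 in EBC-1 and 0.22 in MKN-45, and 7 of the 16 were called opposite ways. HSPA5, which encodes the chaperone BiP, read 12.22, 12.19 and 12.20 on DMSO and 11.04, 11.08 and 11.13 at 48 h in EBC-1. In MKN-45 HSPA5 read 12.14, 12.07 and 12.16 on DMSO and 12.32, 12.29 and 12.32 at 48 h. The group means of the lines were 0.083 apart on DMSO, and at 48 h EBC-1 was below MKN-45 by 1.23 (gap -1.23; response difference -1.31 ± 0.047, adjusted p = 1.72e-14). The protein-folding genes SDF2L1 (-2.19 and -0.16), MANF (-1.79 and 0.15), PDIA4 (-1.21 and 0.26) and HYOU1 (-1.02 and 0.39) differed most. Of 21 tested ribosome biogenesis genes, all fell in both lines, and 17 had a lower response in EBC-1 and 0 a higher one (median -0.88). RRS1 (-1.65 and -0.21), NOP16 (-2.39 and -1.08), WDR12 (-1.62 and -0.33) and NOLC1 (-2.05 and -0.91) are examples. ATF4 targets and amino acid genes were mixed, with 9 higher and 9 lower of 25. There the stress gene NUPR1 rose by 0.82 in EBC-1 and 5.01 in MKN-45, the serine synthesis gene PSAT1 fell by 3.79 and 1.04, and DDIT4, an inhibitor of mTORC1, rose by 0.35 in EBC-1 and fell by 2.50 in MKN-45.

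**Figure D3:**
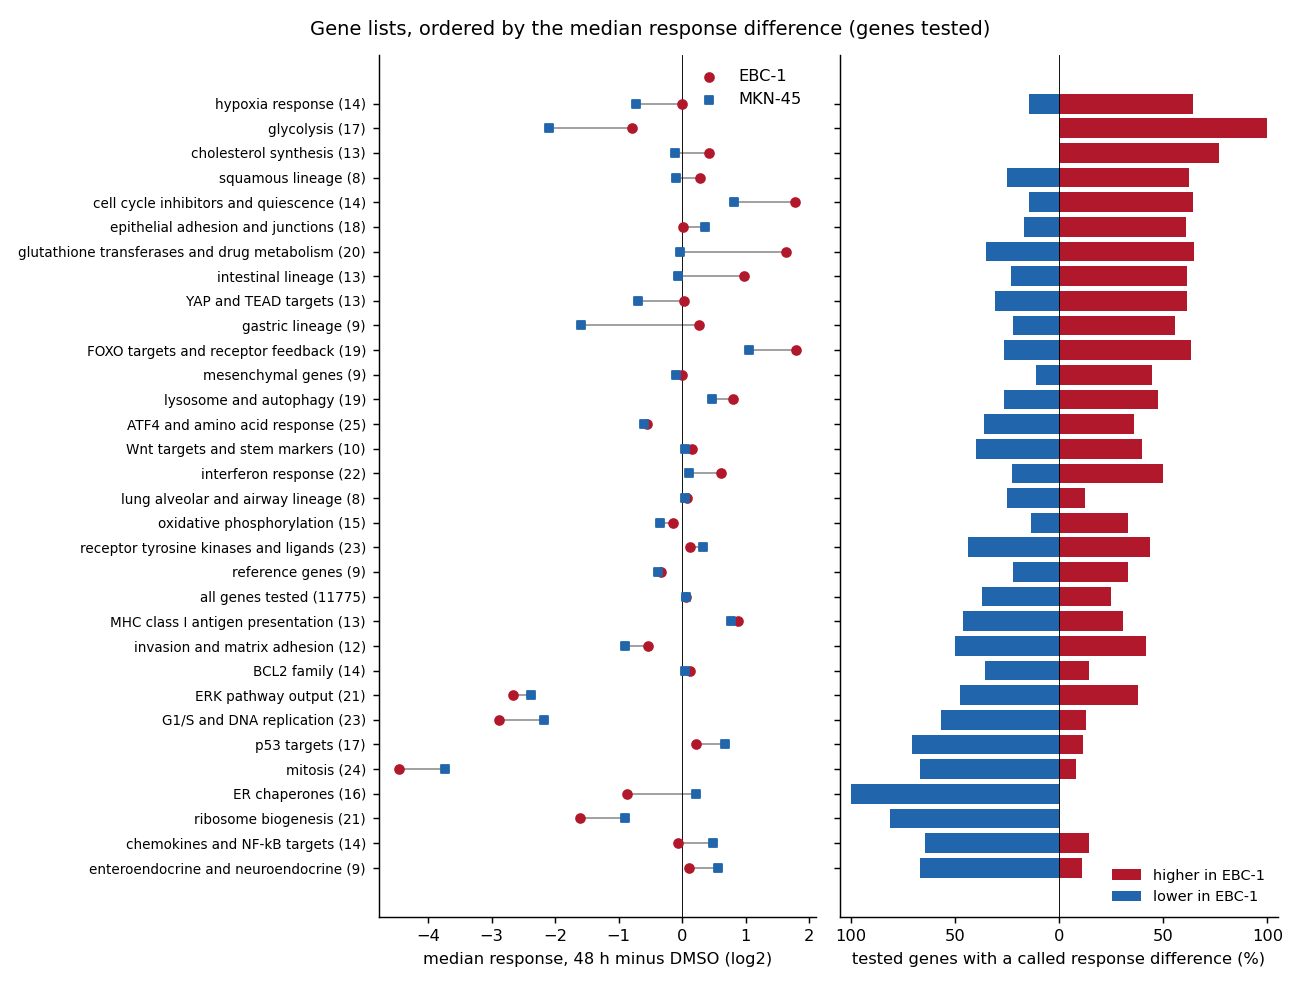
Gene lists with at least 8 genes tested, ordered by the median response difference, with the number tested in brackets. The left panel gives the median log2 response in EBC-1 (red circles) and MKN-45 (blue squares), and the right panel the percentage of tested genes called higher (red) or lower (blue) in EBC-1, with glycolysis at 17 of 17 higher and ER chaperones at 16 of 16 lower. Genes that passed the filter through 1 group are included, so the enteroendocrine, lung and squamous lists in particular are no result.

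Lineage genes included several that were high in 1 group alone. Of 20 enteroendocrine and neuroendocrine genes on the array 9 were tested, and 4 of these passed the filter only through MKN-45 at 48 h, so no count over the list is given as a result. Of the other 5, 1 was higher in EBC-1 and 2 lower. NEUROG3, the factor that commits gut cells to the endocrine fate, rose by 3.26 in MKN-45, beside INSM1 and NKX2-2 (1.82), and these were at low signal in EBC-1. CHGB and ISL1, in contrast, fell in EBC-1 (-1.37 and -1.28) and rose in MKN-45 (1.36 and 0.56). Other genes of the list did not follow. Below the array median on all 12 arrays were 11 of the 20, among them CHGA, GAST, GHRL, SST, CCK and PYY. SYP and PCSK1N stood above it in every group and changed little in MKN-45. Of 12 tested intestinal genes that did not pass through a single group, 7 were higher in EBC-1 and 3 lower (median 0.60). GUCY2C was the one that did, through EBC-1 at 48 h. The responses were 2.69 and -0.058 for the chloride exchanger gene SLC26A3, 2.82 and 0.38 for the guanylate cyclase receptor gene GUCY2C, and 1.30 and -1.37 for the galectin gene LGALS4. SLC26A3 and GUCY2C were at low signal in MKN-45 under both conditions, so their response differences rest on EBC-1. GUCY2C was at low signal in EBC-1 on DMSO too (2.93). CDX2, the intestinal master factor, rose in both (3.06 and 2.46). Of all 13 tested intestinal genes 8 rose in EBC-1 and 3 fell. Levels went down there from DMSO to 48 h for VIL1 (7.95 to 6.27), ANPEP (6.60 to 5.49) and GUCA2A (7.53 to 6.80). In MKN-45 VIL1 stood at 10.31 and 10.27, and ANPEP and GUCA2A were at low signal. The gastric genes TFF1, a trefoil peptide (0.19 and -3.76), VSIG1 (0.46 and -2.50) and CTSE (0.27 and -2.69) fell in MKN-45. In EBC-1 TFF1, VSIG1 and CTSE were at low signal under both conditions, so their higher response there rests on the falls in MKN-45. Of all 9 tested gastric genes 5 fell in MKN-45 and 4 rose. Levels there went up for MUC1 (10.24 to 10.91) and GATA6 (10.58 to 11.05). ANXA10 fell in both lines, from 11.50 to 8.14 in EBC-1 and from 10.46 to 8.77 in MKN-45. Of the 8 gastric genes tested that did not pass through a single group, 4 were higher and 2 lower. SOX2, a factor of foregut and squamous epithelium, rose by 3.06 in MKN-45 and was at low signal in EBC-1. In the lung list 0 were higher and 1 was lower of the 6 that did not pass through a single group.

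Of 13 tested chemokines and NF-kB targets that did not pass through a single group, 8 had the lower response in EBC-1 and 2 the higher (median -1.47). The remaining gene was CXCL10, which passed only through MKN-45 at 48 h. CXCL10, which attracts T cells, read 3.52, 3.38 and 3.51 on DMSO and 7.36, 7.27 and 7.86 at 48 h in MKN-45. On the 6 EBC-1 arrays CXCL10 stayed between 2.82 and 3.28, at low signal. The neutrophil attractant genes CXCL8 (-3.90 and -0.49) and CXCL1 (-1.16 and 1.10), CCL20 (-0.072 and 2.80) and the NF-kB inhibitor gene TNFAIP3 (0.19 and 2.10) went the same way. PTGS2, which encodes cyclooxygenase 2, was the largest of the other direction, with a fall of 3.03 in MKN-45 from a level of 10.59, and low signal in EBC-1.

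The lines were less alike on the inhibitor than on DMSO. The difference between the lines at each gene, called the gap here, had a root mean square over the 11775 genes of 1.305 on DMSO and 1.430 at 48 h, or 2.47-fold and 2.69-fold. The 9 pairs of an EBC-1 with an MKN-45 array were 1.305 to 1.315 apart on DMSO and 1.425 to 1.447 at 48 h, without overlap. Arrays of 1 group differed from each other by 0.150 to 0.179 on the same measure. The distance of an array from the mean of the other line rose from 1.308 ± 0.00076 to 1.434 ± 0.0072 (SD, n = 3) for EBC-1 and from 1.308 ± 0.0040 to 1.434 ± 0.0038 for MKN-45 (exact two-sided permutation p = 0.1 each, the smallest that 3 against 3 arrays allow). Pearson's r of the mean levels across genes was 0.798 on DMSO and 0.749 at 48 h. At 24 h the root mean square gap was 1.402. Genes that passed the filter through 1 group bear on this measure, and over the other 11209 genes it went from 1.305 on DMSO to 1.402 at 48 h. With a filter on the mean over the 12 arrays its rise was 0.0996, against 0.125.

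**Figure D4:**
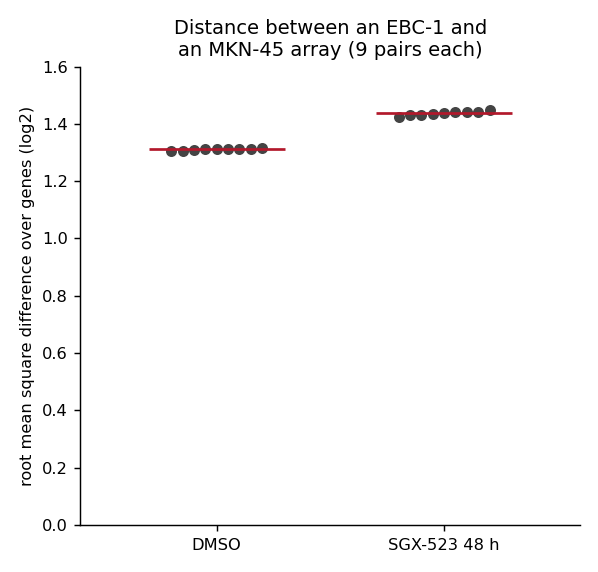
Root mean square log2 difference over 11775 genes between an EBC-1 and an MKN-45 array, for the 9 pairs on DMSO and the 9 at 48 h of SGX-523, with red lines at the means. The DMSO pairs lie between 1.305 and 1.315 and the 48 h pairs between 1.425 and 1.447.

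The rise was there at every level of expression. With genes split evenly by mean level into 3 groups of 3925, in the lowest group the root mean square gap went from 1.460 to 1.634, in the middle group from 1.434 to 1.521, and in the highest group from 0.959 to 1.072. The gap was called at 8985 genes on DMSO (76.3%) and at 9704 at 48 h (82.4%; 38.9% higher in EBC-1 and 43.5% lower), and it was called and at least 2-fold at 3034 and 3606. Of these, 2179 were past 2-fold under both conditions, 855 on DMSO only and 1427 at 48 h only. Where the response difference was called, the gap had widened at 3900 genes (33.1%), narrowed at 2429 (20.6%) and changed sign at 916, with a called gap of either sign. Of 1466 genes at least 2-fold higher in EBC-1 on DMSO, 655 narrowed and 384 widened, and of 1568 higher in MKN-45, 575 narrowed and 514 widened. Gaps of at least 2-fold on DMSO thus narrowed more often than they widened, while over all genes widening was the more frequent. The DMSO arrays that chose these genes also enter both classes, and a small gap has little room to narrow. That contrast therefore follows in part from the choice, and it is a description only. At 48 h, gaps of at least 2-fold favoured EBC-1 at 1501 genes and MKN-45 at 2105.

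The largest narrowings came from falls in 1 line or from movement of both. CEMIP, ITM2A and SEMA3D among them passed the filter only through the group where they were high. TFF1 fell in MKN-45 from 10.56, 10.37 and 10.31 to 6.53, 6.80 and 6.61, and in EBC-1 its 6 arrays lay between 3.35 and 3.71, so that the gap went from -6.94 to -2.98. The gap of UPK1B went from -7.41 to -3.22 and that of CEMIP from -5.96 to -0.68, also through falls in MKN-45. ITM2A, a membrane protein gene, and SEMA3D, which encodes a guidance cue, fell in EBC-1 by 3.95 and 4.14, so that gaps of 5.15 and 5.09 closed to 1.02 and 1.10. IQGAP2 (from -5.11 to 0.26), S100P (from -4.37 to 0.32) and TUBB3 (from 4.80 to 0.80) narrowed through movement of both lines. The largest widenings, 4 of them of genes that passed only through MKN-45 at 48 h as given above, were those of INSM1 (from -1.64 to -7.42), RGS4 (from -0.25 to -5.75), MUC13 (from 0.58 to 5.73), ADGRF1 (from 1.22 to 6.14), RFX6 (from -0.083 to -4.99), HES6 (from -0.30 to -5.20), RGCC (from 2.49 to 7.35) and ELAPOR1 (from -0.25 to -5.09).

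**Figure D5:**
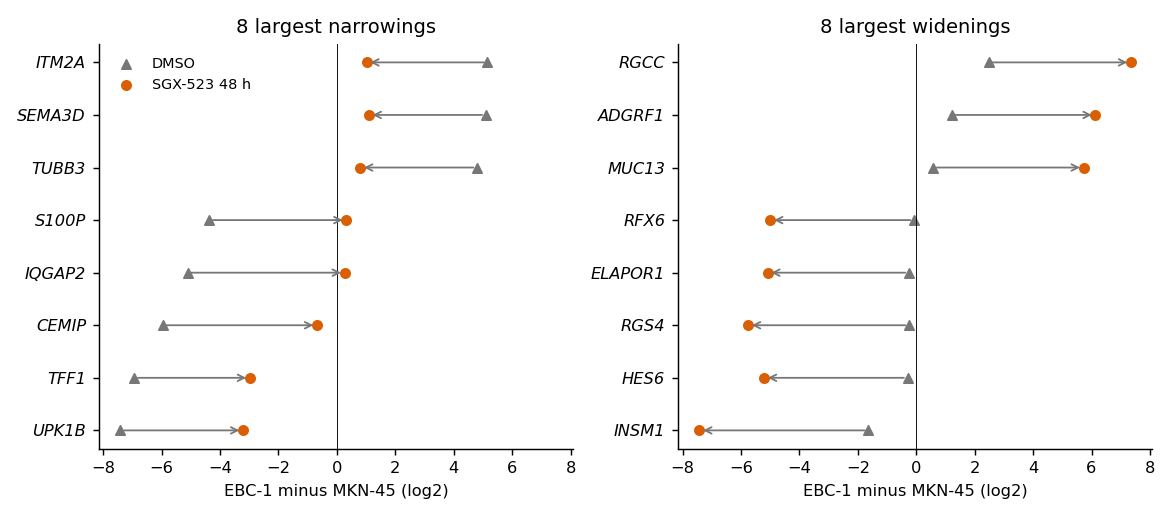
Gap between the lines (EBC-1 minus MKN-45, log2 group means) on DMSO (grey triangles) and at 48 h of SGX-523 (orange circles) for the 8 genes with the largest narrowing and the 8 with the largest widening. CEMIP closed from -5.96 to -0.68, and INSM1 opened from -1.64 to -7.42.

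By list, the root mean square gap was larger at 48 h in 22 of 33 lists, and in 21 of 33 without the genes that passed through 1 group. Mitosis genes, close to equal in the lines on DMSO (0.583), were 1.320 apart at 48 h, and 15 of 24 had widened. ER chaperones went from 0.691 to 1.516 and cholesterol synthesis from 0.582 to 1.069. The enteroendocrine list went from 1.515 to 2.951, but from 1.719 to 0.433 over the 5 genes that did not pass through 1 group. Gastric lineage genes, far apart on DMSO (4.243 over those 8 genes), were 3.477 apart at 48 h. Hypoxia genes (from 1.533 to 1.282) and FOXO targets (from 1.314 to 1.183) also drew together. Ribosome biogenesis changed from 0.698 to 0.636, where 6 genes narrowed, 5 widened and 6 changed sign.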

How the data were processed

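Expression arrays were analysed from the log2 values that the authors deposited, 1 for each of 49395 probe sets and array, between 1.87 and 14.36 on the 12 arrays used. The only tool given, per the submitters' processing notes, is MAS5, without role or version, and the normalization method is not stated in the labels. 

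The filter required a value at or above the array's median on at least 3 of the 12 arrays and left 27913 probe sets, 25680 of them for 1 gene. Each gene was represented by its brightest remaining probe set. Of 44988 probe sets with 1 gene in the platform table, 44961 matched RefSeq by Entrez ID, 1832 had several genes and 2473 none. The tests were made in limma 3.58.1 under R 4.3.3 (lmFit with 4 group means, eBayes with an intensity trend, 8 residual degrees of freedom), adjusted by Benjamini-Hochberg at 0.05. Values are log2 ± SE. The p-values measure the spread between arrays. HCC827 arrays enter no test and the 24 h values come from a fit over the EBC-1 and MKN-45 arrays. The method was tested on simulated data.

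The rule named MET, HGF and EGFR, the 12 genes with the largest response difference in each direction, 8 opposite in each direction, 8 narrowing and 8 widening, 10 alike and 4 per list; the largest had to be called, without overlap of the lines' array-wise responses, and with at least 1 group mean above the median level of the genes tested. List members named beyond these were chosen after their values were seen. Members and lists were chosen with earlier results of these data known. Alternatives were other normalizations and centrings, pseudocounts of 16 and 64, filters, averaged probe sets, no trend, array weights, more arrays, replicate blocks and each array left out, and, chosen after seeing the data, a filter on the mean over the 12 arrays and each array left out with the probe sets kept. Same-numbered arrays did not deviate together in every pair (r of 0.017 to 0.064 in EBC-1 and -0.078 to 0.148 in MKN-45), so the numbers were not taken as pairs.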

Additional observations from a re-analysis of the deposited data

Results flagged for a closer look

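The following genes were singled out because the same treatment changed them in opposite directions in EBC-1 and MKN-45, and the difference itself was tested as the response difference (limma). All but EGFR were chosen for called opposite responses with a called difference, so their opposite directions follow from the choice and the values are a description. Higher in EBC-1 were IQGAP2 at 5.37, MUC13 at 5.14, S100P at 4.69, SERPINB5 at 4.08, CDA at 3.74, MMP28 at 3.72, KLF4 at 3.64, PRSS3 at 3.56 and EGFR at 2.56. Lower in EBC-1 were PHLDB2 at -8.41, TMEM158 at -8.24, ANO3 at -6.55, LIPF at -4.77, PDGFA at -4.75, TUBB3 at -3.99, SERPINB9 at -2.93 and CHGB at -2.73. MKN-45 replicate 3 at 48 h read lowest of its group for CDA (3.92, against 4.98 and 4.55).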

How the results depend on the processing

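Under 26 planned and 13 added alternatives, the counts of genes with a higher response in EBC-1 ran from 1999 (external controls) to 3385 (quantile normalization), with 2916 as reported, and of those with a lower one from 3481 to 4931, with 4329 as reported. Centring on external controls moved the median response difference from -0.058 to -0.18. The gap grew on the inhibitor under every alternative. Its change in root mean square, 0.125 as reported, was 0.141 after quantile normalization, 0.133 with external controls, 0.104 with a pseudocount of 64, 0.105 without a filter, 0.116 with averaged probe sets, 0.0996 with a filter on the mean level, and 0.0963 to 0.134 with an array left out (0.122 to 0.130 with the probe sets kept). Without an MKN-45 array at 48 h, genes that had passed only there were no longer tested. The r of the responses was 0.605 with either pseudocount, 0.587 without a filter, 0.640 with a stricter one and with one on the mean level, 0.593 with averaged probe sets and 0.602 to 0.620 with an array left out (0.598 to 0.601 with the probe sets kept). With an array left out, counts of higher and lower genes were 2701 to 2937 and 4105 to 4292, of opposite genes 1100 to 1200, of widened gaps 3643 to 3792 and of narrowed gaps 2242 to 2434. Other alternatives moved these counts further. Opposite genes ran from 860 (all 27 arrays) to 1272 (external controls), with 1199 as reported. Widened gaps ran from 2949 to 4221 and narrowed gaps from 1930 to 2587. With all 27 arrays 2394 genes were higher and 3604 lower. A pseudocount of 64 left 906 response differences of at least 2-fold, against 1756. With the replicate number within each line as a block, 2961 genes were higher and 4389 lower, and the block over both lines gave 2977 and 4404; of the 7245 calls, 7152 and 7205 were shared.

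Of 162 named genes, 122 had a value under each alternative and kept direction and side of the threshold in all; 22 had no value under at least 1, because they were filtered out. With the probe sets kept, 153 did so with any array left out. Calls were lost for BMF (without an MKN-45 array at 48 h) and SFTPB, whose adjusted p was 0.0502 to 0.0895 without 1 of 7 arrays; for GAPDH with external controls; and for ABCA3, AXL, KRT15 and TGFBI with a pseudocount of 64. Called reversals were CCNA2 (0.31 with averaged probe sets, 0.25 with a pseudocount of 64), KIF20A (0.24 and 0.33 with pseudocounts of 16 and 64), SPC25 (0.26 and 0.34 likewise), MET (0.37) and SOX4 (-0.27), both with averaged probe sets; the pseudocount shrinks falls to low signal, and for the rest the cause was not tested. Low signal limits the sizes of genes under the array median, and 3 arrays a group limit exact tests to p = 0.1.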

Other observations

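Of 20 tested genes of glutathione transfer and drug metabolism, 17 rose in EBC-1 and 1 fell, while in MKN-45 9 rose and 10 fell. Of them 13 had a higher response in EBC-1 and 7 a lower one (median 0.63), or 13 and 6 of the 19 that did not pass the filter through a single group. The aldo-keto reductase genes AKR1C1 (2.83 in EBC-1 and -0.67 in MKN-45), AKR1C2 (3.90 and 0.10) and AKR1C3 (1.93 and 0.94) and the cytochrome genes CYP1B1 (2.14 and -0.29) and CYP3A5 (1.35 and -1.10) favoured EBC-1. The transferase genes GSTA1 (5.11 and 6.58), GSTA2 (4.51 and 5.26) and UGT2B15 (3.83 and 5.77) rose in both and further in MKN-45, as did ALDH1A1 (2.19 and 3.09). CYP1A1 rose in MKN-45 (2.99) and was at low signal in EBC-1. Members of the AKR1C and GSTA families are near-identical copies, and whether their probe sets share signal was not tested.

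Over all genes 24.8% were higher in EBC-1 and 36.8% lower, with a median of -0.058. Interferon genes were higher in EBC-1 at 11 of 22 and lower at 5 (median 0.14). IFIT1 (1.45 and -0.58), OAS1 (0.42 and -1.28) and IRF9 (1.06 and -0.13) lay on one side and ISG15 (-0.69 and 0.46) and IFI6 (-0.091 and 1.15) on the other. Antigen presentation was split, with 4 of 13 higher and 6 lower, from the immunoproteasome gene PSMB9 (0.52 and 1.78) to the class I gene HLA-F (2.03 and 1.28). In the BCL2 family 2 of 14 were higher and 5 lower, the latter near the share over all genes (1 and 7 where arrays were centred on the external controls). The death genes BMF (1.41 and 3.45) and PMAIP1 (-2.21 and -0.36) had the largest response differences there. For BMF the probe sets range from -2.04 to -0.21. Leaving out MKN-45 replicate 1, 2 or 3 at 48 h made another of its probe sets the brightest, with -0.24, -0.24 and -0.35 and no call (adjusted p of 0.26, 0.265 and 0.0875), while on the probe set reported BMF stayed called with any 1 array left out. In this family BBC3 rose in both (1.69 and 1.35). Among YAP and TEAD targets 8 of 13 were higher and 4 lower (median 0.57), with NT5E (0.37 and -2.84) and F3 (-0.042 and -3.15) falling in MKN-45 and CCN1 falling in EBC-1 (-1.80 and 0.086). Junction genes were higher at 11 of 18 and lower at 3 (median 0.68), or at 10 and 3 of the 17 that did not pass through a single group, among them CLDN7 (1.76 and -0.62) and OCLN (2.12 and 0.78). CD44 fell in EBC-1 (-2.55 and -0.014), MMP1 fell further in EBC-1 (-4.32 and -0.83), and the integrin gene ITGB4 fell further in MKN-45 (-0.45 and -3.07).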
